A study of Arabidopsis thaliana with 18 samples.

Results

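The transcripts described here were those whose signal stood higher in the first of 3 title sets than in the other two, in plants given salicylic acid (SA) and in plants given the carrier alone. They comprised 240 of 22746 non-control probe sets of the ATH1 array, or 2.55% of the 9419 probe sets with a mean signal of 50 or more over all arrays. A member had a mean log2(signal + 2) in set 1 at least 1 above the means of set 2 and of set 3, within each treatment separately, and a mean signal of at least 50. The rule left out by name a group of genes that included every WRKY and UGT gene, and 5 probe sets that met the gaps were dropped for that reason, for PUB23, STZ, WRKY6, BZIP60 and a pair of UGT73B genes that share a probe set. The levels that chose the members are given below as a description and were not tested. The opposite pattern, lower in set 1 by the same margin in both treatments, was found in 43 probe sets.

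The study measured RNA from Van-0, a natural accession of Arabidopsis thaliana, on 18 arrays, 1 sample each. The 9 SA samples had received 0.3 mM SA in 0.02% silwet, a wetting agent, and the 9 silwet samples 0.02% silwet alone, so that the wetting agent was common to every plant and no untreated plants were measured. Title sets 1, 2 and 3 are runs of 3 consecutive title numbers within a treatment and hold arrays 1 to 3, 4 to 6 and 7 to 9, each run holding Rep numbers 1, 2 and 3 once. The labels say neither what a title set marks nor which tissue or age was sampled. They also do not state whether replicates were separate plants or pots, and the p-values below therefore rest on a spread that may in part be technical.

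Plants exposed to microbes, wounding or abrupt changes in their surroundings switch on a broad set of transcripts within a short time, and many of these encode calcium sensors, receptor-like kinases, transcription factors, chaperones and secreted defence proteins. SA is a plant hormone of immunity against pathogens that feed on living tissue, and it changes transcription largely through the NPR proteins. Most such stress transcripts respond to several signals, so that membership in such a class does not name the stimulus.

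Of the 240 members, 107 had 1 annotated gene, 4 had several and 129 are not named by the annotation used here, so unnamed members may include genes that the rule leaves out by name. Named members represented 106 genes, since both probe sets of AT1G18390, a receptor-like kinase gene, were members. A known role could be given for 63 members, and they were grouped by role after their values had been seen. Among 29 marker genes of plant cell types, 5 had a named probe set. RCA, the Rubisco activase of green tissue, had signals of 1429 to 4059 on all arrays, and EXPA18, an expansin of root hairs, had 8.60 to 25.5. A probe set annotated FDH averaged 332, 771 and 841 in SA sets 1, 2 and 3, and 442, 630.4 and 503 in silwet sets 1, 2 and 3. It was matched by symbol alone and may not measure the epidermal gene on the marker list, so it is not read as an epidermis marker. TRY, a regulator of trichome patterning, averaged 10.3, 22.3 and 15.4 in SA sets 1, 2 and 3, and 11.2, 22.2 and 18.6 in silwet sets 1, 2 and 3, and so was lowest in set 1 of both treatments. FMA, a factor of guard cell formation, had 26.4 to 61.4 over all arrays. The part of these cell types in the members' levels was not tested.

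The median signal of the members was 360.1, 334 and 352 on the SA arrays of set 1, against 63.0, 85.1 and 63.7 in SA set 2 and 51.3, 63.0 and 73.3 in SA set 3. On the silwet arrays it was 203, 313 and 259 in set 1, against 66.1, 95.9 and 91.1 in set 2 and 44.7, 58.1 and 75.0 in set 3. All 3 SA arrays of set 1 lay above the other 6 SA arrays for 230 members, and the same held among the silwet arrays for 180 members. Across treatments, all 6 arrays of set 1 exceeded the other 12 arrays in 160 members. The median gap was 2.16 to set 2 and 2.23 to set 3 with SA, and 1.44 to set 2 and 1.86 to set 3 with silwet. Over the 9419 probe sets of mean signal 50 or more these medians ran from −0.10 to −0.02.

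**Figure D1:**
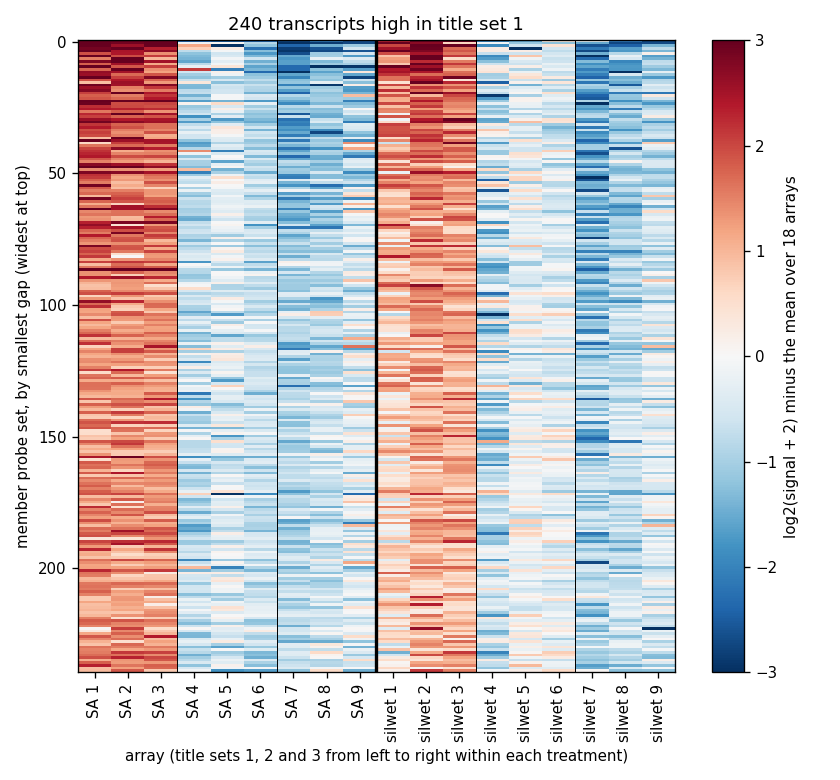
Signals of the 240 members (rows, by smallest gap with the widest at the top) on the 18 arrays (columns), as log2(signal + 2) minus each member's mean over all arrays. The 3 columns of set 1 are the high ones within each treatment, and the colour scale ends at 3 log2 units in either direction.

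The ratio of the 5′ to the 3′ GAPDH control probe sets, a sign of RNA or labelling quality, was 1.12 to 1.26 on the SA arrays and 0.940 to 1.05 on the silwet arrays of set 1. In sets 2 and 3 it was 0.767 to 1.04 on the SA arrays and 0.225 to 1.29 on the silwet arrays, with the lowest values, 0.465 and 0.225, on silwet 4 and silwet 7. For the actin controls the ratio was 0.145 to 0.208 on SA arrays and 0.151 to 0.226 on silwet arrays of set 1. In sets 2 and 3 the actin ratio was 0.139 to 0.407 on SA arrays and 0.0471 to 0.355 on silwet arrays. The part of these ratios in the members' levels was not tested. The deposited table holds no detection calls, so that a low signal is not known to lie above background, and a gap measured against very low signals depends on the pseudocount of 2.

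The smallest of a member's 4 gaps had a median of 1.30, was 2 or more in 35 members and was under 1.2 in 93. Just inside the limit of 1 lay AT1G61640 at 1.01, and AT2G41380 and AT5G15870 at 1.004 and 1.003. Just outside lay AT2G16900 at 0.996, AT1G28190 at 0.988 and AT1G76070 at 0.987. The widest gap, 4.60, belonged to AT1G74870, which encodes a RING-type protein, a class that includes many ubiquitin ligases. AT1G74870 had signals of 396, 333 and 405 in SA set 1, against 1.96, 1.54 and 1.82 in SA set 2 and 0.989, 2.57 and 1.32 in SA set 3. In the silwet arrays it had 101, 395 and 325 in set 1, against 3.04, 5.10 and 24.0 in set 2 and 16.9, 2.68 and 1.06 in set 3. Its signal was thus high on all 6 arrays of set 1 and near the floor of the scale on most of the other 12.

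**Figure D2:**
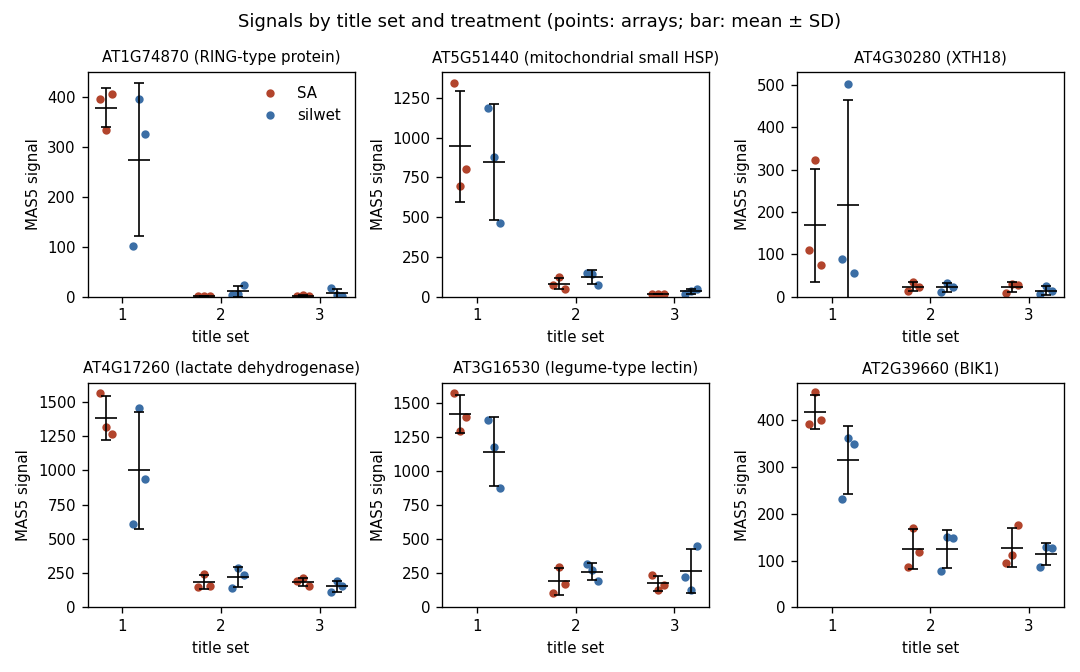
MAS5 signals of 6 members by title set, with SA in red on the left and silwet in blue on the right of each set. Points are arrays and bars are the mean ± SD (n = 3), and the linear axes start at 0. Every set 1 mean lies above the means of sets 2 and 3 of its treatment, as the rule requires, and the spread in silwet set 1 is wide for XTH18, AT1G74870 and AT4G17260.

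Chaperones and related stress proteins made up 6 of the members with a role, with smallest gaps of 1.03 to 2.73. AT5G51440, a small heat shock protein of mitochondria, had signals of 1345, 694 and 803 in SA set 1, against 73.1, 121 and 50.7 in SA set 2 and 14.8, 17.6 and 19.1 in SA set 3. Its silwet signals were 1189.8, 882 and 463 in set 1, against 149, 145 and 72.7 in set 2 and 17.3, 36.7 and 46.8 in set 3. This transcript stepped down from set 1 to set 2 and again to set 3 in both treatments, without overlap between the sets. AT2G21640, a mitochondrial protein used as a marker of oxidative stress, had the same order, with 1352, 394 and 501 in SA set 1, against 176, 180.2 and 86.1 in SA set 2 and 51.7, 35.8 and 53.2 in SA set 3. Its silwet signals were 765, 660 and 478 in set 1, against 326, 204 and 99.1 in set 2 and 64.3, 70.8 and 69.0 in set 3. Hsp70-2, a cytosolic HSP70 chaperone that refolds damaged proteins, had 688, 791 and 802 in SA set 1, against 132, 174 and 146 in SA set 2 and 123, 123 and 149.7 in SA set 3. Its sets 2 and 3 overlapped, and in silwet it had 322, 540 and 295 in set 1, against 60.9, 179 and 174 in set 2 and 57.4, 131 and 158 in set 3.

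A lower set 3 than set 2 was common among the members, although the rule asked only that both be low. The mean of set 2 was above that of set 3 in 155 members with SA, with a median difference of 0.16, and in 205 members with silwet, with a median difference of 0.40. In 142 members, set 2 was above set 3 in both treatments. Of the probe sets of mean signal 50 or more, 48.7% had set 2 above set 3 with SA, 50.02% with silwet and 22.6% with both. Since the rule read the means of both sets, this order was not tested.

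Calcium-related proteins gave 7 members, with smallest gaps of 1.08 to 1.58. AT3G01830, a calmodulin-like protein, had signals of 529, 582 and 381.4 in SA set 1, against 57.5, 92.7 and 49.7 in SA set 2 and 21.2, 21.3 and 90.4 in SA set 3. In silwet it had 325, 303 and 158 in set 1, against 97.8, 84.0 and 68.1 in set 2 and 36.7, 43.1 and 83.8 in set 3. Within set 3 the array numbered 9 was the high one in both treatments. The same held for AT4G27280, an EF-hand calcium-binding protein, with 753, 1023 and 530.0 in SA set 1, against 183, 253 and 139 in SA set 2 and 145, 112 and 309.7 in SA set 3. Its silwet signals were 575, 641 and 322 in set 1, against 235, 144 and 115 in set 2 and 220.0, 123 and 438.04 in set 3, so that silwet 9 lay above silwet 3. AT4G34150, a C2-domain protein, AT1G67800, of the copine type, and IQD22, which has an IQ domain that can bind calmodulin, were also members.

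Receptors and kinases gave 10 members of 9 genes, with smallest gaps of 1.01 to 2.24. BIK1, a receptor-like cytoplasmic kinase that acts just below the receptors of pattern-triggered immunity, had signals of 392, 459 and 399 in SA set 1, against 86.4, 170.3 and 119 in SA set 2 and 95.8, 112 and 176 in SA set 3. In silwet it had 231, 362 and 349 in set 1, against 77.2, 149.9 and 147 in set 2 and 87.0, 128 and 126 in set 3. The SA and silwet arrays of sets 2 and 3 overlapped, and all 6 arrays of set 1 lay above them. AT2G34930, a leucine-rich repeat protein, had the widest smallest gap of the group, at 2.24, and had 99.8, 317 and 129.9 in SA set 1 and 72.7, 617 and 259 in silwet set 1, the array numbered 2 being the highest in both. In sets 2 and 3 it had 20.7 to 66.5 with SA and 7.97 to 67.8 with silwet.

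Secreted defence proteins and lectins gave 10 members. AT3G16530, a legume-type lectin, had signals of 1569, 1294 and 1395 in SA set 1, against 106, 297 and 173 in SA set 2 and 237, 131 and 162 in SA set 3. Its silwet signals were 1373, 1176 and 876 in set 1, against 317.5, 274 and 197 in set 2 and 222, 131 and 448 in set 3. AT4G28460, the precursor of a secreted peptide that amplifies immunity, had 314, 239.7 and 221 in SA set 1 and 295, 202 and 135 in silwet set 1, and 14.8 to 84.7 on the other 12 arrays. The group also held AT2G43620 and AT1G02360 of the chitinase type, the jacalin-type lectins JAL34 and JAL23, the subtilase SBT3.5, the protease inhibitor AT1G72060 and the matrix metalloproteinase AT1G24140.

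Oxidases, transferases and transporters were the largest group, with 15 members. AT2G38240, a dioxygenase that inactivates jasmonate, the wound hormone, had 802, 1329 and 507 in SA set 1, against 132, 218 and 114 in SA set 2 and 73.4, 109 and 114 in SA set 3. In silwet it had 405, 1845 and 1015 in set 1, against 148, 146 and 199 in set 2 and 63.4, 66.4 and 143 in set 3. The berberine bridge enzyme-like oxidases, AT1G26380, AT1G26420 and AT4G20830, were members, as were the MATE efflux transporters AT2G04050 and AT3G23550. The acetyltransferase genes AT2G32020 and AT2G32030, both of the GNAT type, lie next to each other in the genome. A second adjoining pair was AT2G39650 and BIK1 (AT2G39660). Of the 47 direct neighbours of member genes that had a mean signal of 50 or more, 4 were members (8.51%), against 47 of 2104 such neighbours of all named genes (2.23%). The 4 are the genes of the pairs just named, since each pair was counted from both sides.

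Transcriptional regulators gave 6 members. AT2G22880, of the VQ class that binds WRKY factors, had 253, 229.8 and 91.8 in SA set 1, against 25.1, 43.2 and 6.15 in SA set 2 and 3.0006, 11.4 and 49.5 in SA set 3. In silwet it had 227, 216 and 127 in set 1, against 52.4, 33.6 and 21.9 in set 2 and 10.6, 2.25 and 31.2 in set 3. The others were AT4G28140 of the ERF type, the bHLH factor AT1G10585, the GRAS factor AT3G46600 and the PLATZ zinc finger factors AT4G17900 and AT5G46710. AT4G17900 had 965, 997 and 1073 in SA set 1 and 699, 795 and 937 in silwet set 1, and none of its other 12 arrays exceeded 394.

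Central carbon metabolism was represented by 3 members and the cell wall by 3. AT4G17260, the lactate dehydrogenase that regenerates NAD+ when oxygen is short, had 1562, 1317 and 1264 in SA set 1, against 151, 241 and 160.0 in SA set 2 and 190.3, 212 and 155 in SA set 3. Its silwet signals were 612, 1454 and 936 in set 1, against 141, 287 and 235 in set 2 and 115, 194 and 154 in set 3. AT5G56350, a pyruvate kinase, had 1634, 1599 and 1379.6 in SA set 1, but 337, 2017 and 1517 in silwet set 1 and 181, 888 and 782 in silwet set 2, so that silwet 1 lay among the arrays of set 2. XTH18, a xyloglucan endotransglucosylase that remodels wall polymers, had 111, 321 and 74.6 in SA set 1, against 12.7, 34.4 and 23.6 in SA set 2 and 9.70, 31.0 and 27.1 in SA set 3. In silwet it had 89.4, 502 and 55.4 in set 1, against 10.03, 33.0 and 22.4 in set 2 and 5.73, 25.0 and 12.5 in set 3.

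Several members with wide gaps have no role given here. AT2G20720 had 744, 339 and 568 in SA set 1 and 252, 394 and 623 in silwet set 1, against 10.2 to 119.7 on the other 12 arrays. AT1G49000 had 221, 167 and 195 in SA set 1 and 116, 74.1 and 72.8 in silwet set 1, and AT3G09405 had 621, 297 and 459 in SA set 1 and 201, 469 and 381.2 in silwet set 1. The other named members with gaps among the widest were AT1G24095, AT5G05190, AT1G19020, AT2G44370, AT5G14730 and AT5G12420, with smallest gaps of 1.76 to 2.21. AT1G52200, AT2G41730 and AT5G43450, the last a 2-oxoglutarate dioxygenase, were named for their mean signals over all arrays and had smallest gaps of 1.18, 1.251 and 1.099. AT2G41730 had 2609, 2169.6 and 2005 in SA set 1, against 787, 1342 and 558 in SA set 2 and 171, 317.98 and 270.0 in SA set 3. Its silwet signals were 2831, 2238 and 1743 in set 1, against 1686, 1039 and 466 in set 2 and 275, 396 and 364 in set 3, so that set 2 lay between the other sets without overlapping set 3.

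Of 20 gene lists made up from gene symbols, 14 had at least 1 named probe set with a mean signal of 50 or more, and these amounted to 61 probe sets. Of these, 3 were members (4.92%, against 2.55% of all probe sets of that brightness), namely BIK1 among receptor-like kinases, Hsp70-2 among heat shock and ER folding genes and XTH18 among cell wall genes. Of 105 listed probe sets tested, 2 rose with SA in set 1 and none fell, and neither of the 2 was a member. Among all 15922 probe sets tested, 74 rose and 58 fell.

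Whether SA changed these transcripts beyond the carrier was asked with limma across 15922 probe sets. The rule put the same condition on both treatments and fixed no direction between them. It did read the set means that enter these differences, and members are not independent replicates of an SA effect. Counts of members by direction are therefore given as a description. With the title sets as a block, no member passed at an adjusted p of 0.05, against 0.00628% of the probe sets tested. The unadjusted p was under 0.05 for 20 members and for 498 of all probe sets. The members' median difference of SA minus silwet over the sets was 0.08 on the log2 scale.

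Within set 1, SA arrays stood above silwet arrays for most members. The median difference of SA minus silwet was 0.41 and 195 of the 240 differences were positive, against a median of −0.01 and 7798 positive differences among the 15922 probe sets tested. All 3 SA arrays exceeded all 3 silwet arrays in 73 members, whereas this held for 10.3% of the probe sets of mean signal 50 or more. The reverse order held for 1 member, against 12.0% of those probe sets. By limma's test with Benjamini-Hochberg adjustment, 3 members rose with SA and none fell, against 0.465% of all probe sets that rose. With Rep number as a block, 7 members and 280 probe sets passed, against 3 and 132 without it. Without SA 1, SA 2, SA 3 or silwet 2, 1 member passed each time, among 13 to 28 probe sets. Without silwet 3 or silwet 7, 5 members passed, among 164 and 137 probe sets, and without silwet 4, 9 members passed among 229.

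**Figure D3:**
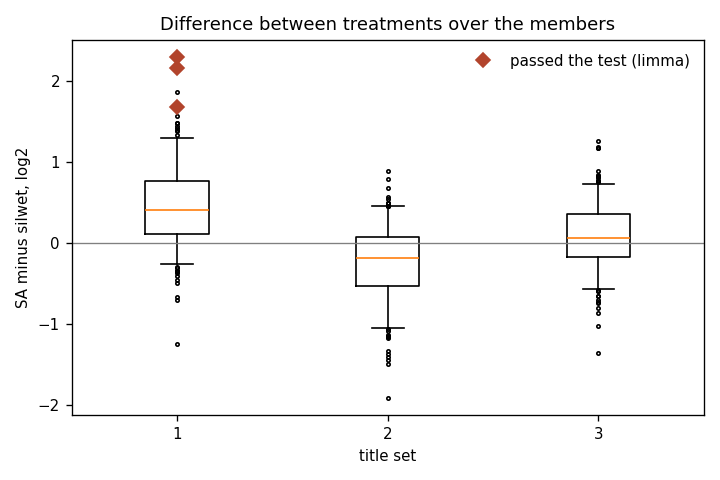
Difference of SA minus silwet on the log2(signal + 2) scale over the 240 members, in each title set. Boxes span the quartiles with the median as a line, whiskers reach the 5th and 95th percentiles, small circles are members beyond them and diamonds are the 3 members that passed limma's test. The median is 0.41 in set 1, −0.18 in set 2 and 0.06 in set 3.

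AT1G02360, of the chitinase type, had signals of 194, 215 and 174 in SA set 1, against 65.3, 56.6 and 55.8 in silwet set 1. The means were 194 ± 20.4 with SA and 59.2 ± 5.28 with silwet (SD, n = 3 each), and the groups did not overlap. It rose by 1.68 ± 0.24 (SE) on the log2 scale with SA, with an adjusted p of 0.00574 by limma. In set 2 it had 14.7, 31.0 and 18.6 with SA and 18.6, 25.1 and 16.9 with silwet, and in set 3 it had 18.8, 18.5 and 20.2 with SA and 17.7, 19.5 and 16.7 with silwet. Its SA and silwet arrays thus overlapped in sets 2 and 3. The call was lost when the arrays of 1 Rep number were left out, with an adjusted p by limma of 0.0567 without Rep 1, 0.583 without Rep 2 and 0.218 without Rep 3.

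The other members that passed have no gene name in the annotation used here. The probe set 253181_at had 1146, 1769 and 933 in SA set 1, against 284, 342 and 160.4 in silwet set 1, a rise of 2.30 ± 0.47 (SE) with an adjusted p of 0.0329 by limma. The probe set 246927_s_at had 359.6, 327.3 and 323 in SA set 1, against 40.0, 72.7 and 136 in silwet set 1, a rise of 2.16 ± 0.47 (SE) with an adjusted p of 0.0413 by limma. Neither overlapped between treatments. The call of 253181_at was lost when any single array of set 1 was left out, with adjusted p-values by limma of 0.0652 to 0.139. That of 246927_s_at was lost without any single array of set 1 except silwet 3, and also without the filter on dim probe sets, with an adjusted p of 0.0584.

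Among named members that did not pass, AT1G08050, a RING-type protein, had 349.9, 489.5 and 491 in SA set 1, against 146, 75.5 and 152 in silwet set 1. The difference was 1.86 ± 0.45 (SE), with an adjusted p of 0.0641 by limma and 0.0176 with Rep number as a block. The methyltransferase AT4G22530 had 654, 578 and 440.3 in SA set 1, against 323, 161 and 143 in silwet set 1, with a difference of 1.48 ± 0.37 (SE) and an adjusted p of 0.0727. One probe set of AT1G18390, the LRK10-type receptor-like kinase, had 164, 199.8 and 206 in SA set 1, against 35.7, 66.4 and 139 in silwet set 1, and its adjusted p was 0.205 by limma and 0.0270 with Rep number as a block. The second probe set of this gene had 351, 347.8 and 401 in SA set 1, against 89.1, 202 and 289.8 in silwet set 1. AT1G03740, a protein kinase, had 148, 222 and 212 in SA set 1, against 16.96, 112 and 221 in silwet set 1, so that its treatments overlapped.

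At the low end, AT2G34930 had a difference of −0.50, the wall acetylation family protein TBL37 one of −0.41, AT1G24140 one of −0.37, AT2G32020 one of −0.34 and AT3G21080 one of −0.30. None of these passed the test, and leaving out single arrays or other settings moved AT2G34930 between −1.31 and 0.22, TBL37 between −0.67 and −0.10 and AT3G21080 between −0.67 and −0.03. TBL37 had 319, 185 and 185 in SA set 1, against 298, 379 and 225 in silwet set 1, and AT1G24140 had 183, 172 and 170.5 in SA set 1, against 279, 255 and 163 in silwet set 1. By role, the difference was positive in all 6 chaperone members, in 9 of 10 receptors and kinases, in 6 of 7 calcium-related members and in 11 of 15 oxidases, transferases and transporters. It was positive in 6 of 10 secreted defence proteins and lectins and in 195 of all 240 members. The role groups were made after the values had been seen, and differences between them were not tested.

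The array silwet 1 was the lowest silwet array of set 1 for 124 members, or 51.7%, against 43.7% of the probe sets of mean signal 50 or more. The members' median difference of SA minus silwet in set 1 was 0.29 without silwet 1 and 0.24 without all arrays of Rep 1, the lowest value among the alternatives, which reached 0.54.

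In set 2 no member passed limma's test and neither did any other probe set (0%), while 22 members and 1710 of all probe sets had an unadjusted p under 0.05. The median difference of SA minus silwet was −0.18 and 79 of 240 differences were positive. Over the 15922 probe sets tested the median was −0.01 and 7758 differences were positive. AT5G56350 had 187, 277 and 215 in SA set 2, against 181, 888 and 782 in silwet set 2. AT1G66880, a receptor-like kinase of the LRK10 type, had 76.2, 92.4 and 84.6 in SA set 2, against 114, 225 and 231 in silwet set 2, without overlap. Without the arrays of Rep 1, which include silwet 4, 23 members and 601 probe sets in all passed in this set. In set 3 again no member and no other probe set passed (0%), with 7 members and 308 of all probe sets at an unadjusted p under 0.05. The members' median difference there was 0.06, with 136 of 240 positive. Over the 15922 probe sets tested it was 0.03, with 8596 positive. The difference between the sets in the response to SA was not tested, because the rule read the means of every set.

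Differences between Rep numbers, which the rule did not use, were about as frequent among the members as elsewhere. By limma's F-test with Benjamini-Hochberg adjustment, 15 members differed between Rep numbers, or 6.25%, against 4.61% of all probe sets tested. With the arrays of the same number as a random block, 3 members and 127 of all probe sets passed. In all 15, Rep 2 and Rep 3 were both above Rep 1, which held for 50.7% of the 734 probe sets that passed. Both arrays with the lowest GAPDH ratio, silwet 4 and silwet 7, carry Rep 1. Without both of them no member passed, nor did any other probe set. Without all arrays of Rep 1, 0 members and 1 probe set passed, and the same held without Rep 2. Without Rep 3, 1 member and 3 probe sets in all passed. The part of RNA quality in these calls was not tested. Without silwet 4 alone, 0 members and 25 probe sets in all passed, and without silwet 7 alone 1 member and 82 probe sets. Without any other single silwet array, 3 to 9 members and 150 to 367 probe sets passed. Leaving out SA 3 gave 5 members of 181 probe sets, SA 6 8 of 223, SA 5 23 of 1046 and SA 9 25 of 1561.

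XTH18 was high on the Rep 2 arrays of set 1, at 321 with SA and 502 with silwet, and its Rep 2 arrays were also the highest of sets 2 and 3 in both treatments. The mean difference of Rep 2 from Rep 1 was 1.69 on the log2 scale. The adjusted p of XTH18 by limma's F-test was 0.0243. The adjusted p-values in this paragraph belong to that test over all Rep numbers together, and single differences between Rep numbers were not tested. The probe set 246114_at had 341, 933 and 1226 in SA set 1 and 141, 692 and 1636 in silwet set 1, with an adjusted p of 0.0178, and AT5G19120 had 293, 402 and 1035 in SA set 1 and 275, 208 and 676 in silwet set 1, with an adjusted p of 0.0236. In both of these Rep 3 was the high one, by 2.16 and 1.63 over Rep 1. AT1G26380, a berberine bridge enzyme-like oxidase, had 146, 146 and 241 in SA set 1 and 56.8, 140.0 and 235 in silwet set 1, with an adjusted p of 0.0386. AT5G43190, an F-box protein that would select targets of a ubiquitin ligase, was higher in Rep 3 than in Rep 1 by 0.98. Its adjusted p by the F-test was 0.0373. BIK1 passed at 0.0490 and the DUF26-type secreted protein AT3G22060 at 0.0448, and the AT1G18390 probe set described above passed at 0.0263. The unnamed 261763_at, 251176_at, 264901_at, 256787_at, 263231_at, 247176_at and 245249_at passed as well. With the arrays of the same number as a random block, 246114_at at an adjusted p of 0.0368 and XTH18 and AT5G19120 at 0.0455 by limma were the members that passed.

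How far the SA and silwet arrays of the same number deviated together differed between array numbers, among the members and the brighter probe sets. After the mean of each treatment and set was taken off, the correlation between the SA and the silwet array over the 240 members was 0.41, 0.52 and 0.53 for arrays 1, 2 and 3. It was 0.07, 0.10 and 0.40 for arrays 4, 5 and 6, and 0.18, 0.45 and 0.64 for arrays 7, 8 and 9. Over the 9419 probe sets of mean signal 50 or more it was 0.38, 0.44 and 0.40 for arrays 1, 2 and 3, then 0.27, 0.02 and 0.62 for arrays 4, 5 and 6, and 0.42, 0.41 and 0.58 for arrays 7, 8 and 9. The members' value was thus the lower one for arrays 4, 6 and 7. Genes are not independent replicates, and the 2 arrays of a number share a Rep number. The median correlation between pairs of members over the 18 arrays, computed the same way, was 0.23, against −0.003 between pairs of probe sets of mean signal 50 or more, and 25.0% of the member pairs were above 0.5, against 18.1%.

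The arrays numbered 9 stood out within set 3. In 118 members, or 49.2%, SA 9 was the highest SA array and silwet 9 the highest silwet array of set 3, against 20.7% of the probe sets of mean signal 50 or more. By role this held for 11 of 15 oxidases, transferases and transporters, 4 of 6 transcriptional regulators and 4 of 7 calcium-related members. It held for 3 of 6 chaperones, 4 of 10 secreted defence proteins and lectins, 2 of 3 ubiquitin-related and 1 of 3 cell wall members. It held for 1 of 10 receptors and kinases and 0 of 3 genes of central carbon metabolism, and for 88 of 177 members without a role. The role groups were made after the values had been seen, and differences between them were not tested. The unnamed 246114_at had 106, 112 and 583 in SA set 3 and 55.7, 66.3 and 377.6 in silwet set 3. AT5G19120 had 60.1, 61.1 and 574 in SA set 3 and 94.8, 73.5 and 352 in silwet set 3. AT1G24140, the matrix metalloproteinase, had 48.2, 37.5 and 156 in SA set 3 and 48.0, 69.0 and 109.6 in silwet set 3. STZ, the zinc finger factor that the rule leaves out by name, had 143, 104 and 591 in SA set 3 and 125, 133 and 487 in silwet set 3. The GAPDH ratio was 0.904 on SA 9 and 0.938 on silwet 9, inside the range of the other arrays. The actin ratio was 0.139 on SA 9, the lowest of the SA arrays, and 0.248 on silwet 9. The part of RNA quality in the array 9 pattern was not tested.

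**Figure D4:**
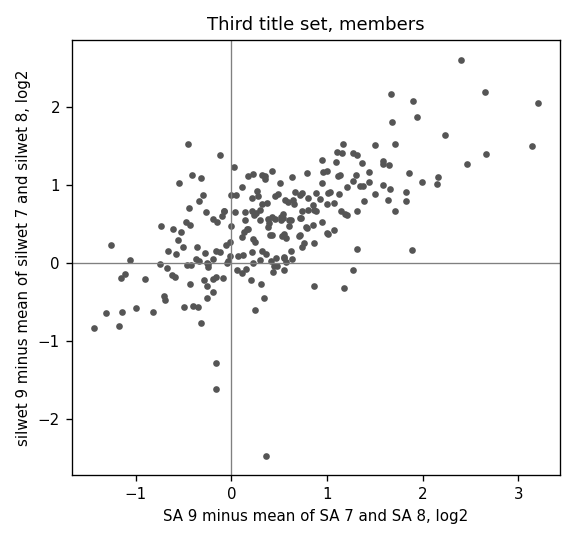
Array 9 of set 3 minus the mean of arrays 7 and 8, on the log2(signal + 2) scale, for SA (x axis) and silwet (y axis). Each point is 1 of the 240 members, and most lie in the upper right part, where array 9 was high in both treatments.

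Within set 2, SA 5 was the highest SA array for 170 members, or 70.8%, against 32.6% of the probe sets of mean signal 50 or more, and silwet 5 was the highest silwet array for 42.9%, against 21.0%. Within set 1 no array number was the high one in both treatments for most members. Arrays 1 were highest in both treatments in 46 members (19.2%, against 21.4% of the probe sets of mean signal 50 or more). Arrays 2 were highest in 49 members (20.4%, against 11.3%) and arrays 3 in 31 (12.9%, against 18.0%).

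**Figure D5:**
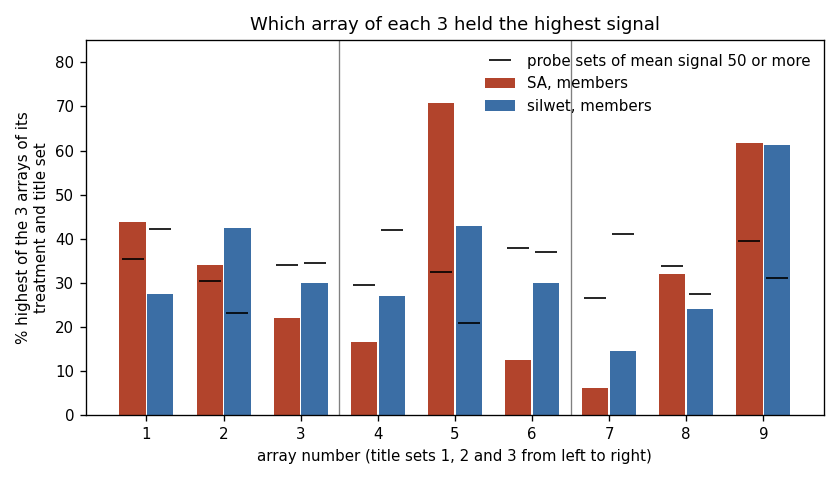
Share of the members for which an array held the highest signal of the 3 arrays of its treatment and title set, with SA in red on the left and silwet in blue on the right of each array number. Black lines give the share over the 9419 probe sets of mean signal 50 or more, and the tallest bars are SA 5 at 70.8%, SA 9 at 61.7% and silwet 9 at 61.3%.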

How the data were processed

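Total RNA of 18 samples was hybridised to ATH1 arrays, and per the labels each sample was 1 array. The deposited values are 1 signal intensity for each of 22810 probe sets and array, made with MAS5, per the submitters' processing notes, which give no version. Their trimmed mean was 100 on every array, which hides any change common to most transcripts, and MAS5 leaves low signals noisy. Signals were analysed as log2(signal + 2), on which the change of a low signal comes out too small. The 64 AFFX controls and the lowest 30% of probe sets by mean were left out of the tests, leaving 15922, and all 240 members were among them because the rule asks for a mean signal of 50 or more. Tests used limma 3.58.1 in R 4.3.3 as two-sided tests whose prior variance followed intensity, and p-values were adjusted by Benjamini-Hochberg over all probe sets tested and a threshold of 0.05. The 18 arrays shared 1 estimate of the spread, and their number limits the precision. Gene names came from GEO's platform annotation, in which 13513 probe sets had 1 gene, 503 had several and 8794 had none, and 13436 were matched to the RefSeq gene table of TAIR10.1.

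The members, gene lists and tests were chosen with earlier results of these data known, and the role groups were made after the values had been seen. Named genes were the 20 of widest smallest gap with 1 gene, those on a list, the 5 highest and 5 lowest differences of SA against silwet in set 1, members past a test (at most 10 for each test and direction, by p), the 3 of highest mean signal and the 3 nearest to the limit on either side. Other genes were named after their values were seen, most of them for their role. The main tests of SA against silwet and of Rep number did not pair same-numbered samples. Rep number or array number entered as a block only in alternatives. Pairing was inferred from the data. The mean deviations of Rep 1, 2 and 3 over the title sets correlated between SA and silwet at 0.45, 0.54 and 0.37. These values are over the 9419 brighter probe sets, where single array numbers gave 0.02 to 0.62. The rule and the fits were tested on simulated data first. Alternatives changed the pseudocount, scaling, filter, block and arrays used. Promoter motifs were not examined here, since no sequence was at hand.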

Additional observations from a re-analysis of the deposited data

Results flagged for a closer look

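The 46 members chosen by the naming rule and the mean level of all members, with each treatment taken separately, gave 94 groups of 9 arrays, and in 12 of them a single array stood apart from the nearest other by more than Dixon's limit. Chance sets apart about 1 in 20 groups of 9 like arrays, a rate that does not apply here because the rule chose members whose set 1 differs from the other sets, so the number of such groups is not a result. These arrays all belong to set 1, whose 3 arrays of each treatment the rule requires to be high on average. XTH18 (AT4G30280) stood apart on SA 2 at 321.5 and on silwet 2 at 502.4, and AT2G34930 on SA 2 at 317.5 and on silwet 2 at 616.8, so that both transcripts were highest on the arrays numbered 2 of both treatments. On the arrays numbered 1, AT1G24095 stood apart on SA 1 at 298.4, TBL37 (AT2G34070) on SA 1 at 318.6 and AT4G22530 on silwet 1 at 323. On silwet 3, AT1G18390 had 139.3, AT1G03740 had 221, 246114_at had 1636 and AT5G19120 had 676. On SA 3, 264901_at had 173.4.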

How the results depend on the processing

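The rule with a gap of 1.5 gave 87 members, and leaving out 1 array or Rep number at a time gave 184 to 300. The rule keeps at most 300 members, so that more probe sets may have met the gaps where 300 were found. The 3 members called in set 1 became 5 with a pseudocount of 8, 9 with a pseudocount of 16, 8 with quantile normalization, 5 with median centring, 5 with the lowest 50% left out, 7 with Rep number as a block and 14 without silwet 4 and silwet 7. Leaving out 1 array or Rep number gave 0 to 9, with 1 member without silwet 2, SA 1, SA 2 or SA 3, 5 without silwet 3 or silwet 7 and 9 without silwet 4. In set 2 the leave-outs gave 0 to 23, the 23 without Rep 1. The 15 members called by Rep number became 9 with no filter, 3 with arrays of the same number as a random block and 0 without silwet 4 and silwet 7, and 0 to 25 over the leave-outs. They were 0 without silwet 4, 1 without silwet 7, 3 to 9 without any other silwet array, 5 without SA 3, 8 without SA 6, 23 without SA 5 and 25 without SA 9. The difference of AT2G34930 in set 1 ran from −1.31 to 0.22 over the leave-outs, 0.22 being without silwet 2, and the cause of these changes was not tested. Rep number as a block moved no count of members called over the title sets together, in set 2 or in set 3. The members' median difference in set 1 was positive under all 30 alternatives, at 0.24 to 0.54, and that in set 2 negative, at −0.31 to −0.02. With 3 arrays for each treatment and set, and no detection calls, low signals carry no known margin over background.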
